A study of Homo sapiens with 6 samples.

Results

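Serum-responsive short-lived mRNAs are transcripts that growth factors induce quickly and that are soon degraded. The mRNAs of 10 genes, JUN, FOS, MYC, EGR1, SRF, IER2, IER3, CCN1, CCN2 and MCL1, were chosen by name and followed through 6 libraries of U2OS cells, a human osteosarcoma line. The choice was made with earlier results of these data known. All 10 were found among 10539 transcripts whose sequence could be matched to an annotation. Reverse transcriptase (RT) stops were mapped on poly(A)-selected mRNA to ask where RNA G-quadruplexes fold in vitro and in cells. RT halts at a folded G-quadruplex and at A and C methylated by dimethyl sulfate (DMS). DMS also methylates G at N7. The paper states that such G cannot join a G-quadruplex in vitro, which relieves the RT stall. A pair of libraries was made without DMS and labelled as reverse transcribed in 150 mM K+ or in 150 mM Na+, although Li+ in place of Na+ is given in the published protocol. Another pair came from mRNA that was refolded and treated with DMS in 150 mM K+ or 150 mM Li+. The last pair came from cells treated with 8% DMS for 5 min, either unstressed or starved for 2 h in a balanced salt solution that holds no serum and no amino acids. All 4 DMS libraries were reverse transcribed in 150 mM K+. There was 1 library per condition, so no difference given here has a replicate check, and every interval covers counting error only.

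Serum activates SRF and its partner factors at promoters that are ready to fire, and the first mRNAs made encode transcription factors and secreted proteins that start growth. Many of these mRNAs carry AU-rich elements in the 3′ UTR, built around the pentamer AUUUA, at which decay factors bind, so the mRNA level follows synthesis closely. Withdrawal of serum ends the growth factor signal, and loss of amino acids silences mTORC1 and activates the kinase GCN2, which raises translation of ATF4.

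The deposited labels and file names of the pair without DMS contradict each other about the cation, so these are called the library labelled K+ and the library labelled Na+. Matched transcripts held 55617924 stops in the library labelled K+ and 53130638 in that labelled Na+. They held 36133239 (K+) and 48862365 (Li+) stops after probing in vitro. Unstressed cells gave 22073677 stops and starved cells 39036210. These totals include nucleotides with fewer than 3 stops, which the files do not list and which were estimated from the deposited ratios. The markers were those of a mesenchymal line. Of 10 mesenchymal markers, such as VIM, COL1A1, SPARC and FN1, 9 were matched, with a summed share of 2456 to 3062 ppm per kb of transcript (stops per kb and per 1000000 stops of the library), led by VIM or LGALS1. Of 6 epithelial markers CDH1, ESRP1 and KRT19 were not matched, and the other 3 summed to 50 to 115 ppm per kb, nearly all from KRT8. Of 6 blood markers only HBB was matched, at 1.56 to 10.6 ppm per kb.

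All 10 mRNAs held less of the library in starved than in unstressed cells, each by at least 2-fold. Across 9747 tested transcripts, 32.2% fell by as much and 7.14% rose by as much, where tested means at least 200 stops over both libraries and a listed A in each. The 10 mRNAs together took 1374 ppm (stops per 1000000) in unstressed and 347 in starved cells. In the other 4 libraries they took 1320 (labelled K+), 1432 (labelled Na+), 1356 (in vitro K+) and 1375 (in vitro Li+), so the starved library alone was low. It was the lowest of the 6 libraries for 10 of 10 members (9 with listed stops only) and for 55.4% of tested transcripts. In the other 5 libraries the highest share of a member was 1.08 to 1.63 times its lowest. In a lysate of many cells, fewer cells with an mRNA and less of it per cell cannot be told apart.

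**Figure D1:**
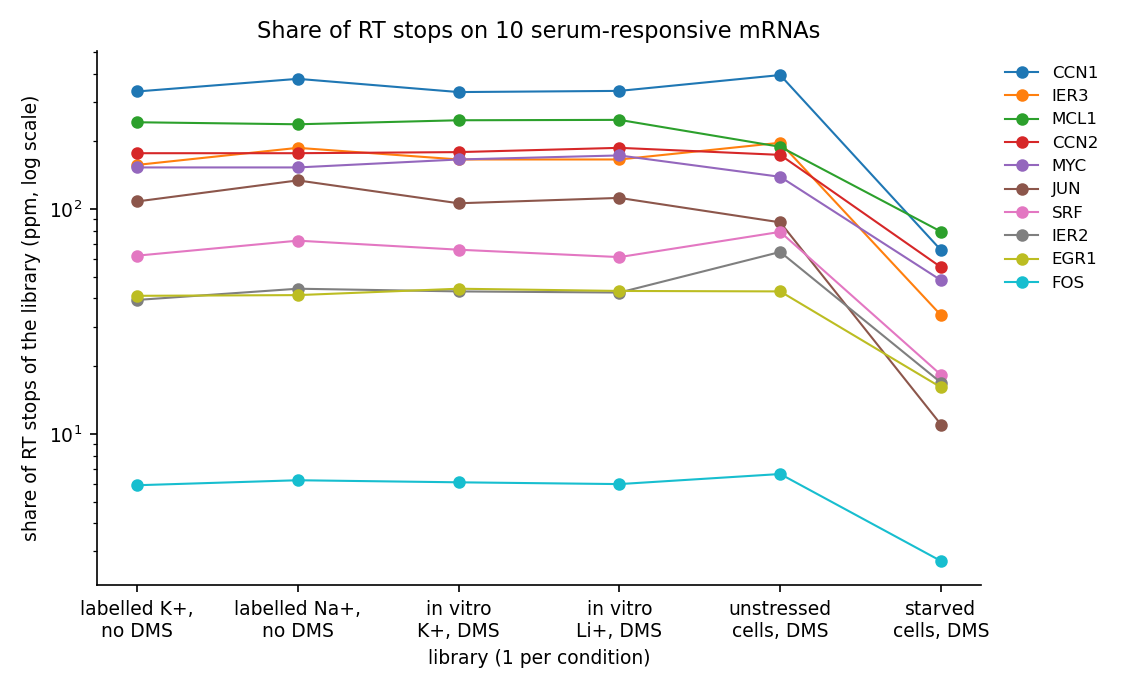
Share of RT stops on each of 10 mRNAs in ppm, stops per 1000000 stops of the library (log axis), for 6 libraries with 1 point each. The lines run nearly level over the first 5 libraries and drop in starved cells, where JUN goes from 87.2 to 11 and MCL1 from 189 to 79.3.

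Per length, CCN1 and IER3 stood highest in unstressed cells, with 173 and 159 ppm per kb. CCN2 (74.3), MYC (59.3) and MCL1 (47.8) came next, followed by IER2 (30.5), JUN (26.8), SRF (18.7) and EGR1 (13.7), and FOS was lowest at 3.15. In starved cells CCN1 (28.8), IER3 (27.2), CCN2 (23.6), MYC (20.5) and MCL1 (20.1) lay close together. IER2 (7.99), EGR1 (5.14), SRF (4.32), JUN (3.38) and FOS (1.29) made up a lower group. JUN thus passed from the seventh place to the ninth, below EGR1 and SRF. Without replicates, neighbours in these orders were not compared.

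JUN and FOS encode the subunits of the AP-1 transcription factor. JUN lies on chr1:59246463-59249719 (minus strand, GRCh37) in 1 exon. The strongest RT stops at G on JUN lay in its 3′ UTR at the ends of G-rich stretches. Those of EGR1 and SRF are set beside them because they have the same layout, with capitals for runs of at least 2 G, the stop at the last base and positions as numbered in the deposited transcript:
JUN, position 2395, chr1:59247391-59247420 (minus strand): cattcagtattaaaGGGGGGaGGGGGaGGG
JUN, position 2491, chr1:59247295-59247324 (minus strand): gaGGGttGGGGaGGGGcGGcaGGaGGGaGG
EGR1, position 1930, chr5:137803769-137803798 (plus strand): aaaGGGaaaGGGGaaagaaaGGGaaaaGGG
SRF, position 3478, chr6:43148375-43148404 (plus strand): cttgaGGGtGGGccagcataGGGGGGaGGG

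JUN took 108, 134, 106 and 112 ppm in the libraries labelled K+ and Na+ and in vitro in K+ and Li+. It took 87.2 in unstressed and 11 in starved cells, a log2 ratio of -2.98 (95% interval -3.14 to -2.83). This was the largest fall among the 10, and 0.215% of tested transcripts fell further. Only 58 of its 430 stops in starved cells were listed, and the size of the fall varied with the setting, from -2.59 (median scaling) to -4.70 (listed stops only), -5.73 (coding sequence) and -6.18 (thinned libraries). The value from the coding sequence rests on 152 listed stops in unstressed and 6 in starved cells. FOS was scarce everywhere, at 5.91 to 6.63 ppm in 5 libraries and 2.72 in starved cells (log2 ratio -1.28, -1.66 to -0.91). Its interval was the only member's that reached past -1, and only 12 stops in unstressed and 10 in starved cells lay on listed nucleotides, so its share is mostly an estimate.

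MYC, a transcription factor of growth and ribosome production, took 153 ppm in both libraries without DMS and 166 and 173 in vitro. It took 139 in unstressed cells and 48.2 in starved cells, a log2 ratio of -1.53 (-1.62 to -1.45). EGR1, a zinc finger factor of the first wave after serum, was level at 41.1 to 44.2 ppm in 5 libraries and stood at 16.1 in starved cells (log2 ratio -1.41, -1.56 to -1.27). Only 108 of its 630 stops in starved cells were listed and 3 of 4 bases were estimated, and the ratio was -2.38 with such bases counted as 0 and -2.63 with listed stops only. Both values lie outside the interval, which treats estimated stops as counted. SRF binds the serum response element in the promoters of FOS and EGR1. It took 62.0, 72.3, 65.9 and 61.1 ppm in the first 4 libraries, 79.1 in unstressed and 18.3 in starved cells (log2 ratio -2.11, -2.24 to -1.99). Only 111 of its 714 stops in starved cells were listed, and the ratio was -3.48 with listed stops only, -3.17 in the 3′ UTR and -4.63 with thinned libraries. FOS, SRF, IER2, IER3 and CCN1 were highest in unstressed cells, whereas JUN, MYC, CCN2 and MCL1 were lower there than in the 4 libraries from RNA that was not probed in cells.

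IER2 and IER3 are immediate-early genes, IER2 a nuclear protein and IER3 a modulator of cell survival and ERK signalling. IER3 (chr6:30710976-30712324, minus strand, 2 exons) and IER2 (chr19:13261225-13265725, plus strand, 2 exons) held strong G stops, again in the 3′ UTR. The strongest of each are shown, and of AUUUA sites in IER3 the one with the most stops at A, its pentamer in capitals (T for U):
IER3, position 1168, chr6:30711048-30711077 (minus strand): ctgcgaGGtagaGGGttGGGGGttGGtGGG
IER2, position 1849, chr19:13265492-13265521 (plus strand): tgaatcacgagaatgtGGaGGGGtGGGGGG
IER3 AUUUA, chr6:30711420-30711448 (minus strand): atatttatatgtATTTAtgtacgtcctcc

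IER3 took 157, 187, 166 and 166 ppm in the first 4 libraries, 197 in unstressed and 33.7 in starved cells. Its log2 ratio was -2.55 (-2.64 to -2.46), 5.85-fold. IER2 took 39.4, 44.2, 43.0 and 42.5 ppm, then 64.4 in unstressed and 16.9 in starved cells (log2 ratio -1.93, -2.07 to -1.80). IER2 was thus high in unstressed cells, and against RNA probed in vitro its log2 ratio in starved cells was -1.34.

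CCN1 and CCN2 are secreted matricellular proteins that bind integrins, and both genes answer to SRF and to the Hippo effector YAP as well as to serum. CCN1 (chr1:86046444-86049633, plus strand, 5 exons) held the G stop with the most counts of any member, and CCN2 (chr6:132269316-132272512, minus strand, 5 exons) a weaker one. Both G stops are shown with an AUUUA site of each, in the same notation:
CCN1, position 1470, chr1:86048796-86048825 (plus strand): aaaatGGGcGGGGGtGGtgtGGGtgatGGG
CCN2, position 1535, chr6:132270125-132270154 (minus strand): ttaaGGtgtGGctttaGGagcagtGGGaGG
CCN1 AUUUA, chr1:86049336-86049364 (plus strand): tgaaaagattttATTTAtggaattaacca
CCN2 AUUUA, chr6:132269734-132269762 (minus strand): ttatctaagttaATTTAaagttgtttgtg

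CCN1, the most abundant of the 10 per length, took 333, 379, 331 and 335 ppm in the first 4 libraries. It took 394 in unstressed and 65.6 in starved cells, a log2 ratio of -2.59 (-2.65 to -2.52), 6.02-fold. CCN2 took 177, 177, 179 and 187 ppm, then 174 in unstressed and 55.1 in starved cells (log2 ratio -1.65, -1.73 to -1.58). CCN1 fell further than its paralogue, and the counting intervals of the ratios did not overlap. In the coding sequence alone, over listed stops only, the ratios were close, at -4.37 for CCN1 and -4.31 for CCN2. These rest on 2435 and 247 listed stops for CCN1 and on 161 and 17 for CCN2, in unstressed and starved cells.

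MCL1, on chr1:150547034-150552086 (minus strand, 3 exons), encodes a short-lived BCL2 family protein that keeps cells alive. Its G stop and an AUUUA site of its long 3′ UTR are shown:
MCL1, position 3758, chr1:150547358-150547387 (minus strand): GGGtttataGGGGGaGGaGGaGGcaGGtGG
MCL1 AUUUA, chr1:150547915-150547943 (minus strand): atgctcacttaaATTTAcagaaagaggtg

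MCL1 took 243, 238, 248 and 249 ppm in the first 4 libraries, 189 in unstressed and 79.3 in starved cells. Its log2 ratio of -1.25 (-1.32 to -1.18) was close to that of FOS, the other small fall, and FOS fell less in several settings (-1.14 against -1.61 with listed stops only). JUN, CCN1, IER3 and SRF had fallen at least 4-fold, which held for 7.52% of tested transcripts. SRF did not reach 4-fold under median scaling (-1.72), against RNA probed in vitro (-1.79) or against the libraries without DMS (-1.87).

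The fall of these mRNAs has to be read against GC content. Across the 9747 tested transcripts, which share both libraries and are not independent replicates, the log2 ratio fell with the GC content of the transcript (Pearson's r -0.79, Spearman's rho -0.80). The median log2 ratio was 0.60 at 35 to 40% GC, -0.39 at 45 to 50% and -1.70 at 60 to 65%. At least 2-fold lower were 15.5% of transcripts at 45 to 50% GC and 85.9% at 60 to 65%. The 10 mRNAs had 45.1 to 63.0% GC (median 54.6%, against 47.7% over all tested). Both cell libraries moved with GC content, in opposite directions. Against RNA probed in vitro, r over 9698 transcripts was 0.67 for unstressed and -0.48 for starved cells, and 0.01 between the in vitro libraries. The part of GC content in the fall of the 10 was not tested.

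Each member was therefore compared with the 400 tested transcripts nearest to it in GC content, a measure chosen after seeing the data. All 10 lay below the median of these, and 4 lay at least 2-fold below it, CCN1 (-1.85 on the log2 scale), JUN (-1.68), MCL1 (-1.11) and IER3 (-1.10). Over all tested transcripts 3.8% lay at least 2-fold below and 6.85% at least 2-fold above. Of all tested transcripts 0.0923% lay further below their like than CCN1, and 0.185% further than JUN. By this measure MCL1 stood apart, since its 45.1% GC put it among transcripts with a median of -0.14, of which 5.5% were at least 2-fold lower. CCN2 followed at -0.80. MYC (-0.44), SRF (-0.43), FOS (-0.27), EGR1 (-0.22) and IER2 (-0.21) lay at most 1.36-fold below transcripts of like GC content. These values depended on the setting, and 3 of them passed 2-fold in some. EGR1 (-1.21) and SRF (-1.47) did so with libraries thinned to the same number of listed stops, which put 6 members at least 2-fold below. SRF (-1.06) did so in the 3′ UTR alone, EGR1 (-1.07) with bases that had no listed nucleotide counted as 0, and FOS (-2.14) with stops at G and U. CCN2 reached -2.97 in the coding sequence, where it had 161 listed stops in unstressed and 17 in starved cells. When like GC content was taken over the coding sequence, only CCN1 and JUN lay at least 2-fold below, and MCL1 (0.21), EGR1 (0.15) and FOS (0.13) lay above.

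**Figure D2:**
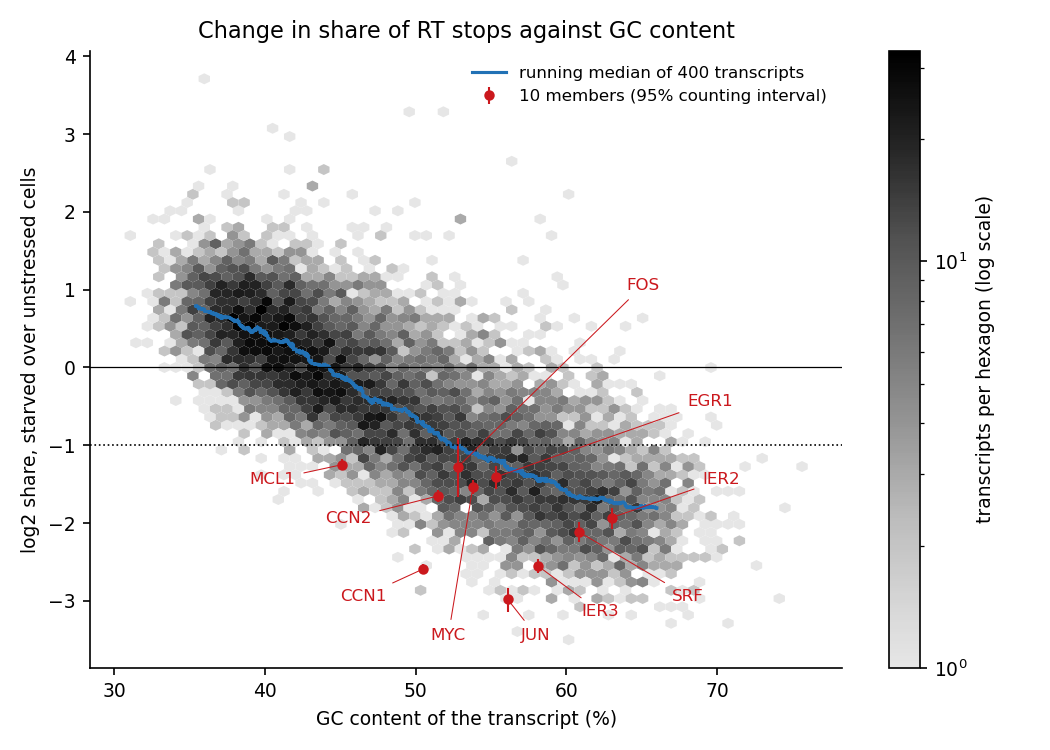
Log2 ratio of the share of RT stops, starved over unstressed cells, against the GC content of the transcript. Grey hexagons count tested transcripts (log scale), the blue line is their running median and red points with 95% counting intervals are the 10 members, of which CCN1 (-2.59 at 50.5% GC), JUN, IER3 and MCL1 lie furthest below the line.

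The median log2 ratio of all tested transcripts was -0.40. With the libraries scaled so that this median was 0, the members' ratios ran from -2.59 to -0.85, and 8 of 10 remained at least 2-fold lower, all but FOS (-0.89) and MCL1 (-0.85). The same scaling moved the counts over all transcripts from 3140 lower and 696 higher to 2086 lower and 1647 higher. Scaled to 12 housekeeping mRNAs, the members ran from -3.14 to -1.41. This scaling made the falls larger, although the median log2 ratio of the 12 was -0.24. Of the 12, EEF1A1 was the most abundant in starved cells and went from 9442 to 16395 ppm (0.80). The scaling was not run without it. Compared with RNA probed in vitro, which comes from no DMS-treated cells, unstressed cells were at least 2-fold lower for 3.58% of 9698 transcripts and for 0 members, with log2 ratios from -0.40 (MCL1) to 0.59 (IER2). Starved cells were at least 2-fold lower than RNA probed in vitro for 28.8% of transcripts and for 10 of 10 members.

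Among other immediate-early and serum-response genes, 20 of 29 tested were at least 2-fold lower in starved cells (32.2% of all tested) and 0 higher, with a median log2 ratio of -1.55. Median scaling left 16 lower and 1 higher. ID1, an inhibitor of helix-loop-helix factors, stood at -2.28, the AP-1 subunit FOSL2 at -2.34 and the kinase PLK2 at -1.63. Relative to like GC content, 7 of the 29 lay at least 2-fold below (3.8% of all tested) and 1 above. KLF2 was not tested, as no A of it was listed in starved cells. Of 5 feedback inhibitors of growth factor signalling 1 was lower (32.2% of all tested), the phosphatase DUSP5 at -1.20, and the median was -0.91. Under median scaling 0 were lower.

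Cytoskeletal genes that SRF and its cofactor MRTF drive were lower in 10 of 15 cases (32.2% of all tested) and higher in 0 (median -1.69). ACTB (-2.44) and ACTG1 (-1.69), the cytoplasmic actins, and the actin crosslinker FLNA (-2.93) held the most stops of these. Relative to like GC content 3 of the 15 lay at least 2-fold below (3.8% of all tested). These were ACTB and FLNA (-1.27 and -1.25) and TLN1 at -1.80, the last named after its value was seen. Of 13 tested targets and members of the YAP and TEAD pathway, which also drives CCN1 and CCN2, 6 were lower and 0 higher (median -0.74), against 32.2% lower among all tested transcripts. AMOTL2 (-1.93), AXL (-1.39) and AJUBA (-1.14) fell, none of the 13 lay 2-fold off transcripts of like GC content. Under median scaling 2 of them were at least 2-fold lower and 1 higher.

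Of 7 genes of the MYC network 1 was higher (7.14% of all tested) and 3 lower (32.2%), with a median of 0.08. MXD1, which competes with MYC for its dimer partner MAX, was higher at 2.35. MAX (-1.26), MXD4 (-1.30) and MLX (-1.11) were lower. After scaling to the median of all tested transcripts 0 of the 7 were lower and 2 higher. Relative to like GC content 0 lay at least 2-fold below (3.8% of all tested) and 2 above (6.85%). MXD1 rested on 88 estimated stops in unstressed and 795 in starved cells. In the BCL2 family, 4 of 9 were lower (32.2% of all tested transcripts), among them BAK1 (-2.24), BAX (-1.69) and BCL2L1 (-2.09), and 1 was higher, the proapoptotic MCL1 antagonist PMAIP1 (1.48). Relative to like GC content 0 of the 9 lay at least 2-fold below (3.8% of all tested) and 1 above (6.85%). The 1 above was BBC3 (1.65), named after its value was seen, whereas PMAIP1 stood at 0.80.

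Among proteins that bind AU-rich elements, 6 of 10 mRNAs were lower (32.2% of all tested) and 0 higher (median -1.40), with KHSRP at -1.42, HNRNPAB at -2.15 and HNRNPD at -1.43. Relative to like GC content 3 of the 10 lay at least 2-fold below (3.8% of all tested) and 0 above. These were HNRNPD (-1.63), HNRNPAB (-1.04) and ELAVL1 (-1.41), the last named after its value was seen, whereas KHSRP stood at 0.04. Of 10 tested amino acid response genes 4 were higher (7.14% of all tested) and 1 lower (median -0.19). The cystine transporter SLC7A11 (1.86), the mTORC1 inhibitor DDIT4 (1.96) and asparagine synthetase ASNS (1.08) were higher and the pseudokinase TRIB3 (-1.34) lower. The fourth was DDIT3, which encodes CHOP, at 3.28, named after its value was seen. Relative to like GC content, 5 of these 10 lay at least 2-fold above (6.85% of all tested) and 0 below, and median scaling left 4 higher and 0 lower. Of 12 housekeeping mRNAs 2 were lower (32.2% of all tested), the glycolytic ALDOA (-2.10) and the tubulin TUBA1B (-1.46), and the median was -0.24. Of 9 mesenchymal markers 4 were lower (32.2% of all tested), among them COL1A1 (-1.93), SPARC (-1.81) and THY1 (-2.10), with a median of -0.47. Relative to like GC content 1 of them lay at least 2-fold below (3.8% of all tested) and 2 above (6.85%). Of 2 tested epithelial markers KRT8 was lower at -1.32, though 0 were under median scaling. None of the blood markers was tested.

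The median profile of the members over the 6 libraries was most closely followed by ZNF592 and NUP93 (distance 0.06), WDR1 (0.09), and APLP2 and UBTF (0.10). The distance is Euclidean on log2 shares centred on each gene's mean, over 3973 genes with at least 1000 stops in every library. Their log2 ratios lay between -1.72 (ZNF592) and -1.67 (WDR1).

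The stops that remained in starved cells lay more to the 3′ side, most clearly on CCN1 and MYC. In CCN1, 66.7% (95% Wilson interval 65.7 to 67.8%) of listed stops fell in the 3′ UTR in unstressed cells and 85.8% (84.1 to 87.4%) in starved cells. In MYC the share went from 60.5% (58.4 to 62.5%) to 80.5% (78.1 to 82.7%). Because only nucleotides with at least 3 stops are listed, a lower depth alone moves this share. Thinning the unstressed library to the starved depth, added after seeing the data, gave 75.9% for CCN1 and 66.6% for MYC, below what was found. CCN2 (98.9%, 98.2 to 99.3%, against 96.9%), IER2 (100%, 98.5 to 100%, against 98.3%) and MCL1 (99.5%, 99 to 99.7%, against 98.9%) also lay above their value from thinning, by less. For IER3 (75.6%, 72.4 to 78.5%, against 77.9%) and JUN (84.5%, 73.1 to 91.6%, against 90.5%) the interval held the value from thinning, as it did for EGR1 and SRF. FOS (70% against 35.1%) rested on 10 listed stops in starved cells. The coding sequence is richer in GC than the 3′ UTR in CCN1 (55.7 against 37.1%) and MYC (58.8 against 27.3%), and its part in the shift was not tested. Over 4451 transcripts the median share in the 3′ UTR was 72.9% in unstressed and 71.7% in starved cells.

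RT stops at G are where a G-quadruplex would be read. A strong stop was a G with an E, its stops over the transcript mean, of at least 10, where both libraries without DMS averaged 1 stop per nucleotide or more. This left 7 of 10 members, without FOS, EGR1 and SRF. By the labels, 0 of the 7 had a strong G stop at least 2-fold stronger in the library labelled K+, against 4.84% of 3718 transcripts. At an E of at least 5 there were 11 such stops, against 41 stronger in the library labelled Na+. No share over all transcripts is given at this E. In the opposite direction, 28 stops on 6 of the 7 (JUN, IER2, IER3, CCN1, CCN2 and MCL1, not MYC) were stronger in the library labelled Na+, against 37.7% of transcripts. Every direction drawn from this pair depends on which library was made in K+. Over all transcripts with a mean of at least 1, 4551 strong G stops were at least 2-fold stronger with the Na+ label and 252 with the K+ label. The paper describes RT stalling at G-quadruplexes as dependent on K+. Which label is right was not tested. With a transcript mean of at least 0.25, EGR1 and SRF joined, and 38 stops on 8 of 9 members were stronger in the library labelled Na+ (background 59.7%). By the labels 1 stop, on SRF, was then stronger (34.5%).

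Large differences between the pair lay, among others, at sites printed above for JUN, CCN1, IER3 and SRF. JUN at position 2395 had 609 stops in the library labelled Na+ and 9 in that labelled K+, with E of 279 and 4.88. CCN1 at position 1470 had 1061 and 34 stops (E of 120 and 4.19), and a second peak lay 8 nt upstream, at position 1462, with 1023 and 10. Further down, position 1946 had 477 and 23. IER3 at position 1168 had 817 and 8 stops, and SRF at position 3478 had 245 and 3, while its position 2124 had 188 and was not listed with the K+ label. Each of these 4 mRNAs thus held a few nucleotides where stops piled up in 1 library and hardly in the other. EGR1 at position 1930 had 48 stops in the library labelled Na+, CCN2 at position 1535 had 46 and MCL1 at position 3758 had 43, and none of these was listed in the library labelled K+. The stops at G made up 44% of all stops on JUN in the library labelled Na+ and 28.6% in that labelled K+. The same shares were 36.3 and 24.6% for CCN1, 40.8 and 28.8% for IER3 and 43.6 and 28.4% for SRF, whereas MYC (23.2 and 21.7%) and MCL1 (22.2 and 20.7%) lay near the medians of all transcripts, 24.2 and 23.3%.

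Merged within 30 nt, the strong stops at least 2-fold stronger in the library labelled Na+ formed 19 sites on 8 genes, 18 in 3′ UTRs and 1 in the 5′ UTR of JUN. In the 45 nt that end at the stop, 18 of the 19 held 4 runs of GG with loops of up to 9 nt, and 5 held 4 runs of GGG with loops of up to 7 nt, sense strand only. The second pattern is a special case of the first. Of all 6076 G of the same transcripts, 21% and 1.22% had such windows. The 5 sites lay in CCN1 (position 1470), JUN (2491), EGR1 (1930) and SRF (3089 and 3211). Those of EGR1 and SRF passed only the lower limit on the transcript mean.

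In the DMS libraries the same nucleotides stopped RT far less often than in the library labelled Na+. CCN1 at position 1470 had 91 (K+) and 75 (Li+) stops in vitro. In unstressed cells it had 13 and in starved cells 20, although the starved library held fewer stops on CCN1. Its E was 3.40 in unstressed and 17.8 in starved cells, 5.23-fold (95% interval 2.48 to 11.4). IER3 at position 1168 had 41 and 53 stops in vitro and 16 and 19 in cells, and its E went from 4.55 to 17.9, 3.93-fold (1.91 to 8.17). Both stops were therefore stronger relative to their mRNA in starved cells. Relative to G of the same transcript the folds were 2.96 and 2.47, because stops at G in general took a larger share in starved cells. Because at least 3 stops are needed for listing, only stops whose listing in starved cells took no rise in E were compared over all transcripts, chosen after seeing the data. Of 645 such stops 46.4% were at least 2-fold stronger in starved cells and 74.9% stronger at all, with those not listed there counted as not stronger. Among the strong G stops of the members, only these 2 sites met this condition. JUN at position 2395 had 29 stops in vitro in K+ and 7 in Li+, an E 5.93-fold higher in K+ (2.54 to 16). At position 2491 the ratio was 1.36 (0.687 to 2.68). In cells position 2395 had 3 stops unstressed and was not listed in starved cells, whereas position 2491 was not listed unstressed and had 3 stops in starved cells, too few to show a difference. For CCN1 the ratio of K+ to Li+ was 1.66 (1.21 to 2.28), and for IER3 it was 1.05 (0.679 to 1.6).

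**Figure D3:**
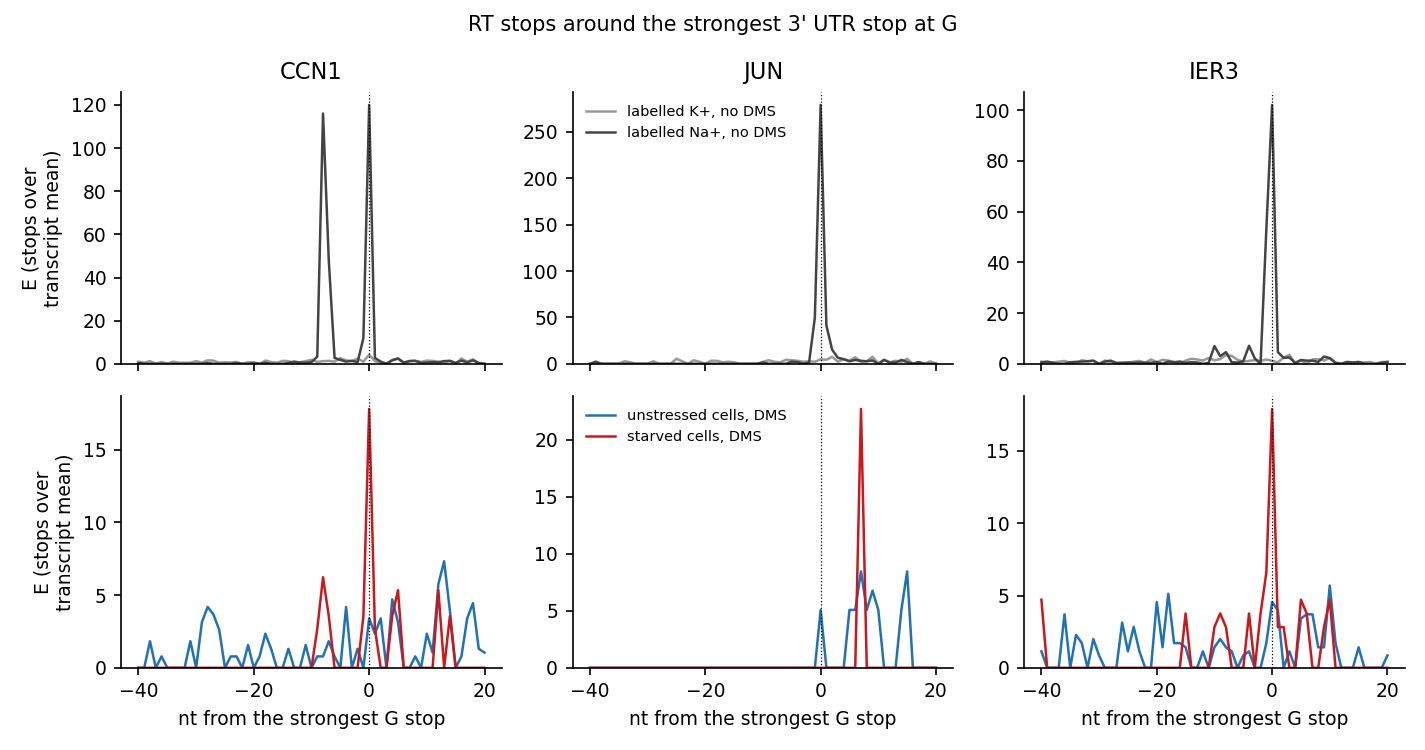
RT-stop enrichment E (stops over the transcript mean) against distance in nt from the strongest 3′ UTR stop at G on CCN1, JUN and IER3, without DMS (top) and in DMS-treated cells (bottom). The library labelled Na+ peaks at 120, 279 and 102, and in starved cells CCN1 reaches 17.8 and IER3 17.9 at the same nucleotide, whereas on JUN the E of 22.7 to the right of the line in starved cells is at a single listed nucleotide.

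DMS methylates A and C at the pairing face. The share of stops at A or C also depends on base composition and on stops at G, and it was not tested as a measure of modification. It could be measured in both cell libraries for 6 members. MYC stood at 87.0% (95% Wilson interval 85.8 to 88.2%) in unstressed and 79.6% (77.7 to 81.4%) in starved cells, and CCN1 at 83.1% (82.2 to 83.8%) and 70.2% (68.4 to 71.9%). IER2 went from 70.7 to 61.5%, IER3 from 77.8 to 66.3%, CCN2 from 84.6 to 72.9% and MCL1 from 83.0 to 72.0%. The share was lower in starved cells for 6 of 6 members and for 99.7% of 3739 transcripts. The median of all tested transcripts went from 82.8 to 74.4%, so the shift was not particular to these mRNAs. In vitro the 6 lay between 64.3 (IER2) and 80.8% (MYC), and without DMS between 40.4 and 55.8%. On CCN1 the loss lay mainly at C, which took 21.9% of its stops in unstressed and 13.7% in starved cells, while G rose from 11.7 to 20.8%. The medians of all tested transcripts moved the same way, from 24.5 to 15.6% at C and from 11.8 to 16.8% at G.

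**Figure D4:**
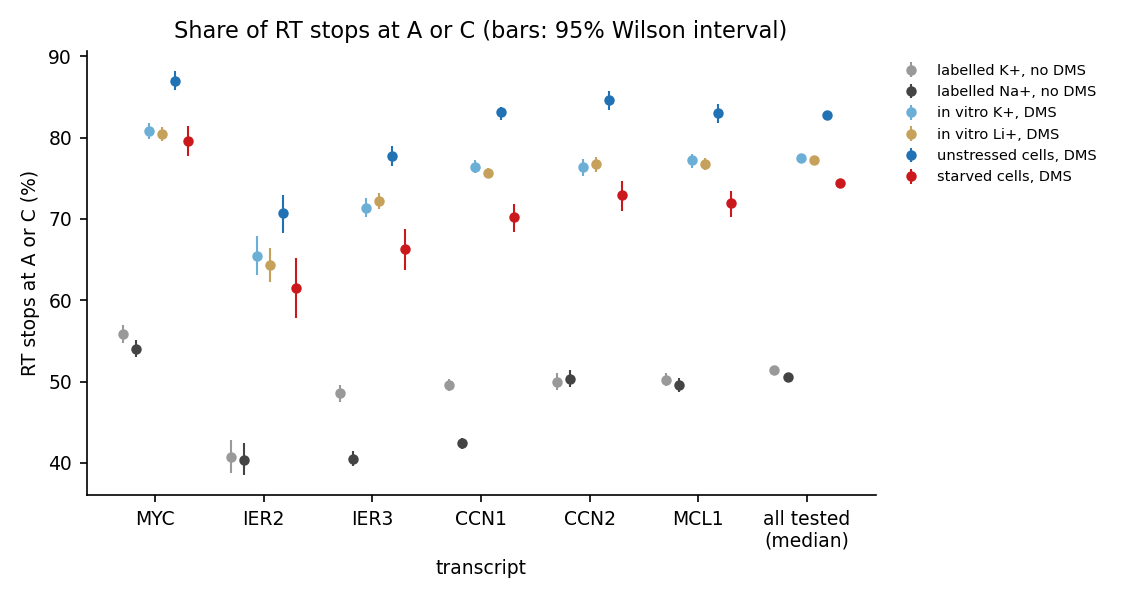
Percent of RT stops at A or C on 6 members and the median of all tested transcripts, in 6 libraries, with 95% Wilson intervals. On each of them unstressed cells are highest, and starved cells lie below them, as on CCN1 at 83.1 and 70.2%.

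AUUUA pentamers were counted in the 3′ UTR of 9 of the 10 mRNAs. MCL1 had 10, IER3 had 6, FOS 5, MYC and CCN1 4 each, JUN, CCN2 and SRF 3 each and EGR1 1, while IER2 had 0. The nonamer UUAUUUAUU, a stronger form of the element, was present only in FOS and SRF. Neither averaged 1 stop per other A of the 3′ UTR in every DMS library. SRF did so in vitro in Li+ only. Its A in AUUUA had 2.21 (95% interval 1.3 to 3.52) times the stops of other A there, from 18 stops on 4 listed of 6 A. The stops per A in AUUUA were divided by the stops per other A of the same 3′ UTR for MYC, IER3, CCN1, CCN2 and MCL1, whose other A averaged at least 1 stop in each DMS library. A value under 1 means fewer stops in the element, whether from pairing, a bound protein or the sequence itself, which cannot be told apart here. JUN missed this coverage in starved cells only. Its 6 A in AUUUA had 0.249 (95% interval 0.0512 to 0.73) times the stops of other A in vitro in K+ and 0.646 (0.333 to 1.13) in Li+. In unstressed cells no stop was listed on them against 438 on other A. These values count unlisted A as 0, although each may hold stops below the 3 needed for listing. No upper limit can therefore be given for unstressed cells.

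Without DMS the mean of the 5 ratios was 1.42 (labelled K+) and 1.37 (labelled Na+), against medians of 1.06 in both over 1049 transcripts. With DMS the mean was 1.06 (K+) and 0.954 (Li+) in vitro, and unstressed cells gave 0.933 and starved cells 0.951, against medians of 0.942, 0.944, 0.807 and 0.881. As a group, the A of these elements in the 5 mRNAs thus had about as many stops as other A once DMS was used, and no difference between unstressed and starved cells was detectable. In unstressed cells 2 of these 5, CCN1 and MCL1, had at least 2-fold fewer stops per A in AUUUA, as had 29.1% of transcripts.

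The members differed among themselves. CCN1 stood at 0.346 (95% interval 0.239 to 0.485) after probing in K+ and at 0.488 (0.376 to 0.624) in Li+. It stood at 0.326 (0.226 to 0.457) in unstressed cells and at 0.755 (0.471 to 1.15) in starved cells. Without DMS it was 1.35 and 0.979, so its elements were low wherever DMS was used except in starved cells, where the interval reached past 1. Of its 8 A in AUUUA, 4 were listed in unstressed cells with 34 stops and 3 in starved cells with 22. The pentamer 654 nt after its stop codon had no listed stop at A in any library. MCL1 stood at 0.954 and 0.955 in vitro, at 0.319 (0.189 to 0.505) in unstressed and at 0.804 (0.528 to 1.18) in starved cells. Its elements were thus low in unstressed cells alone, with 18 stops on 4 listed of 20 A. Its ratio in unstressed cells depended on the unlisted A and rose to 0.512 and 0.656 when these were counted as 1 or 2 stops, and to 0.805 over listed A.

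CCN2 moved the other way, from 1.69 (1.30 to 2.17) in unstressed to 0.851 (0.494 to 1.37) in starved cells, with 64 and 17 stops on A in AUUUA. MYC stayed above 1 in all 6 libraries (1.21 to 1.61), and IER3 lay between 0.839 and 1.54. Against only those other A that lie between U, MYC remained above 1 in the DMS libraries (1.14 to 2.22). IER3 fell to 0.637 and 0.579 in vitro and to 0.943 and 0.438 in cells, and CCN1 rose to 1.5 in starved cells. Changes of opposite sign in CCN1, MCL1 and CCN2 thus lay behind the level mean, though the intervals of CCN2 overlapped. Their size depended on the unlisted A. Over listed A, CCN1 went from 0.389 to 0.981, MCL1 from 0.805 to 0.979 and CCN2 from 1.27 to 0.877. The AUUUA site printed for IER3 had 48 stops at A in unstressed and 8 in starved cells, that of CCN1 23 and 17, that of CCN2 40 and 8 and that of MCL1 7 and 5.

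**Figure D5:**
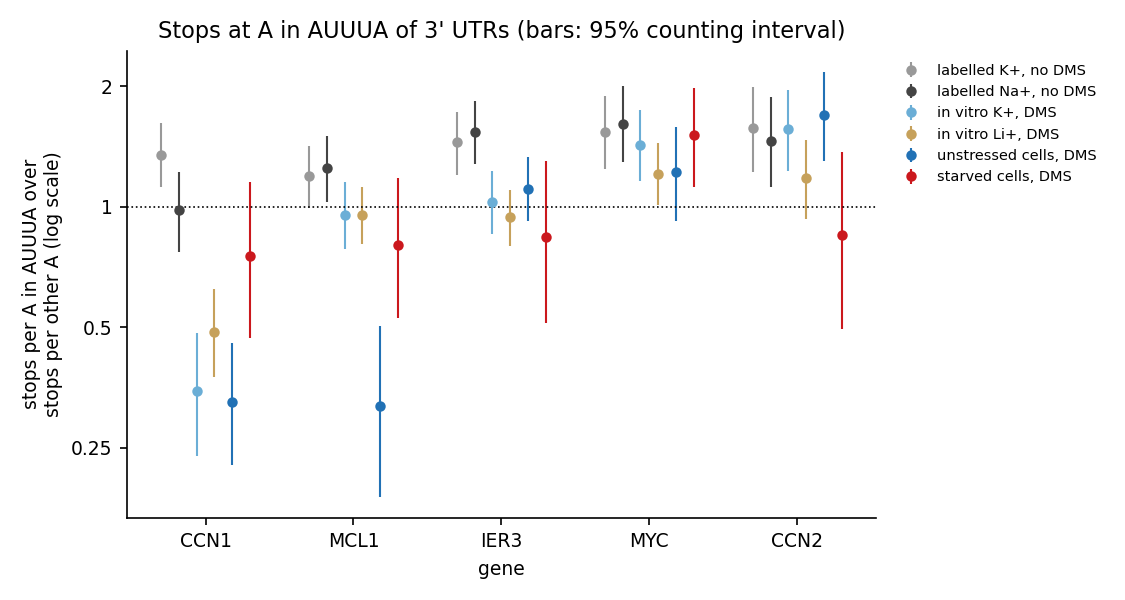
RT stops per A in AUUUA over stops per other A of the same 3′ UTR (log axis) for 5 mRNAs in 6 libraries, with 95% counting intervals and a dotted line at 1. CCN1 and MCL1 are lowest in unstressed cells, at 0.326 and 0.319, and CCN2 is highest there, at 1.69.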

How the data were processed

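RT stops were measured in 6 libraries, 1 per condition, grouped by their sample labels. The authors removed duplicate reads, trimmed adapters and mapped reads with Bowtie to an hg19 transcriptome (tool and build also in the submitters' processing notes). They deposited the stop count of each nucleotide with at least 3 stops, and a ratio to a mean. The paper names the mean over the entire transcript, whereas the values fit the mean of the same base. With at least 5 listed nucleotides, 1 mean per base fitted 100% of cases in every library and 1 mean per transcript 0%. Transcript totals were rebuilt from the base means, and E was calculated anew over the entire transcript. A base with no listed nucleotide was estimated from the mean at A. The files hold 15739 RefSeq transcripts. Those with 15 or more listed bases (11031) were compared with GENCODE release 44 on GRCh37 at 95% identity, and 10539 (95.5%) matched, which gave sequence and regions.

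Shares are scaled to the stops on matched transcripts. Intervals are exact conditional binomial for ratios, exact Poisson for AUUUA and Wilson for shares of bases. Those of share ratios treat the rebuilt totals as counted stops, so they leave out the error of the estimate. A change was called at 2-fold with at least 200 stops over both cell libraries. With 1 library per condition no p-value was calculated. The 10 genes and the 13 lists, which include them, were chosen with earlier results of these data known. In the text stand all 10 members and, of each other list, up to 3 genes per direction past 2-fold with the most stops, else the 2 with the most stops. The 5 genes nearest in profile were added. In total 27 alternatives were set at the start and 18 were added after seeing the data. The calculation was tested on simulated data. Calculations ran in Python 3.11.15 with scipy 1.17.1, numpy 2.4.6 and pandas 2.3.3, and plots in matplotlib 3.10.9.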

Additional observations from a re-analysis of the deposited data

How the results depend on the processing

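All 10 members kept a lower share in starved cells under every setting that gave them a value (EGR1 had none from stops at G and U alone, and EGR1, IER2 and SRF none from the coding sequence). The fall was under 2-fold for FOS in the 3′ UTR alone (-0.41) and for FOS and MCL1 under median scaling, and starved cells were lowest for 9 members with listed stops only. Values from the coding sequence or 3′ UTR alone also use listed stops only. For FOS in the 3′ UTR these were 6 in unstressed and 7 in starved cells. The position of a member relative to transcripts of like GC content was less stable, and all its alternatives were chosen after seeing the data. It turned positive for FOS (0.21) and IER2 (0.04) with listed stops only, for FOS (0.11), MYC (0.14) and IER2 (0.35) with libraries thinned to the same number of listed stops, for FOS (0.68) and MYC (0.17) in the 3′ UTR alone, and for FOS (0.13), EGR1 (0.15) and MCL1 (0.21) with like GC content of the coding sequence, where 2 members in place of 4 lay at least 2-fold below. It grew past 2-fold for EGR1 (-1.21) and SRF (-1.47) with thinned libraries, SRF (-1.06) in the 3′ UTR, FOS (-2.14) with stops at G and U, EGR1 (-1.07) with bases lacking a listed nucleotide as 0 and CCN2 (-2.97) in the coding sequence. IER3 fell to -0.99 there and with such bases as 0, and to -0.97 with GC content of the coding sequence. Strong G stops at least 2-fold stronger with the K+ label numbered 11 at an E of at least 5, 1 at a transcript mean of at least 0.25, and 28 with the labels exchanged. For the Na+ label the main count was 28, and it rose to 41 once the limit on E was lowered to 5. Raising that limit to 20 left 14 with the Na+ label and 0 with the K+ label. The lower limit on the transcript mean gave 38 with the Na+ label. No share over all transcripts is given at an E of at least 5 or 20. The mean AUUUA ratio in unstressed cells ran from 0.743 to 1.09 when each member was left out in turn, with 1.08 without CCN1, 0.743 without CCN2 and 1.09 without MCL1. The causes were not tested. Pentamers inside UUAUUUAUU gave no value in covered members. No paired analysis was possible because each condition had 1 library. Depth limits JUN, FOS, EGR1 and SRF most, since few of their nucleotides reach 3 stops in starved cells. A share also depends on all other transcripts of its library, and absolute mRNA amounts were not measured.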
